A study of Mus musculus with 6 samples.

Results

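Intestinal epithelium is kept as intestine by a small set of transcription factors, and 9 of them are described here in the duodenum of mice without the vitamin D receptor: Pdx1, Gata4, Gata6, Cdx1, Cdx2, Hnf4a, Hnf4g, Klf4 and Klf5. They were taken by gene symbol, each as the probe set that the platform annotation pairs with that symbol alone. Each gene had 1 such probe set, so no choice between probe sets was needed, and the 9 belong to 22180 genes with a probe set of a single symbol. On each of the 6 arrays all 9 exceeded 5.17, the median signal of the table, and so were among the 13174 genes bright enough to be tested. The study hybridised duodenal RNA from 3 VDR-null mice and 3 wild-type mice, 1 whole-transcript array per mouse. Both genotypes had the C57Bl/6 background and were 10 weeks old. The targeted allele, and with it the part of Vdr that is missing, was not stated in the sources used here, nor were sex and diet. Values are log2 signals, on which 1 unit is a doubling, and every difference is the VDR-null mean less the wild-type mean on that scale.

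These factors divide the work of regional and cell identity. The caudal homeobox proteins Cdx1 and Cdx2 hold the epithelium to an intestinal rather than a gastric programme. Pdx1, a homeobox protein of pancreas and duodenum, marks the most proximal intestine. Gata4 is a zinc finger protein of the proximal small intestine that keeps ileal genes silent there, and its relative Gata6 acts along the whole gut. The nuclear receptors Hnf4a and Hnf4g bind at enterocyte genes and can stand in for each other, while the zinc finger proteins Klf4 and Klf5 are linked to differentiating villus cells and to dividing crypt cells in that order.

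The labelled tissue was checked against marker genes. Markers of epithelium averaged 11.02 to 11.09 on VDR-null arrays and 10.93 to 11.06 on wild-type arrays. Of 7 distal gut markers with a probe set 5 were too dim to be tested, among them the ileal bile acid genes Fabp6 and Slc10a2, while the carbonic anhydrase Car4 averaged 10.21 in VDR-null and 9.70 in wild-type duodenum and Slc37a2 averaged 8.70 in VDR-null and 8.33 in wild-type duodenum. Of 9 stomach markers 5 were too dim, among them the foregut factor Sox2, and Pgc, Gast, Tff1 and Atp4a were bright enough to be tested. Gkn2, also among the 5, read 6.65 on wild-type 1 and 4.69 to 5.03 on the other arrays. Tff1 (5.07 to 5.41) and Atp4a (4.94 to 5.44) lay near the table's median of 5.17. The mean of those 4 stomach genes was 5.58 in VDR-null and 5.78 in wild-type duodenum (exact permutation p = 0.1). Of the 4, Pgc differed most, by -0.46 (limma adjusted p = 0.683), with Gast at -0.21, Tff1 at -0.17 and Atp4a at 0.01. Vdr read 10.99, 10.86 and 10.85 on VDR-null arrays and 10.72, 10.95 and 11.11 on wild-type arrays. The genotypes overlapped in Vdr (difference -0.03, limma adjusted p = 0.944), and since the deleted part and the place of the probes are unknown, its probe set does not check the labels.

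None of the 9 factors passed the test between genotypes. In limma's fit over 13174 genes with Benjamini-Hochberg adjustment, 0 of the 9 had an adjusted p under 0.05, where 0% of all genes did, and 0 of the 9 had an unadjusted p under 0.05, where 5.23% of all genes did. In none of the 9 did the arrays of the genotypes stand apart without overlap, where 11.1% of all genes did. The difference was above 0 in 7 factors and below 0 in 2, with a median of 0.12 over the 9 and of -0.03 over all genes tested, of which 44% were above 0. No sign in that count rests on a called difference, and without both replicate 1 arrays 5 of the 9 were above 0. That pair of arrays was chosen after seeing the data. Here and below, leaving it out can only lower the difference of a gene highest on VDR-null 1 and lowest on wild-type 1.

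**Figure D1:**
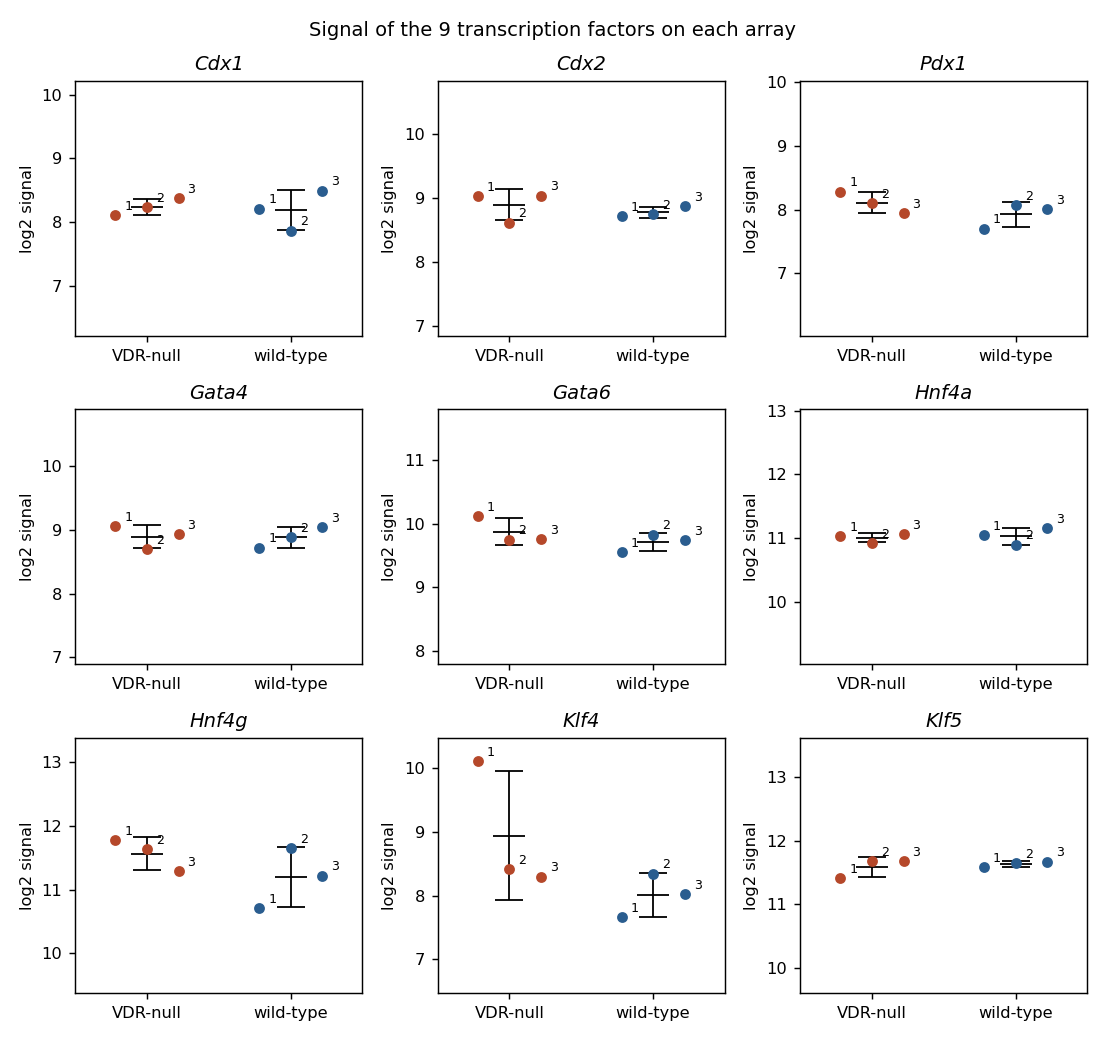
Log2 signal of each factor on the 3 VDR-null arrays (left) and the 3 wild-type arrays (right), numbered by replicate, with the group mean and SD as bars. Every panel spans the same number of log2 units around its gene's mean. Klf4 on VDR-null array 1, at 10.11, stands 1.69 above the next array, and the genotypes overlap in all 9 panels.

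Of the factors of position along the gut, Pdx1 and Gata6 were each highest on one VDR-null array and lowest on one wild-type array, with Gata4 flat between the genotypes. Pdx1 (probe set 17444841; gene on chromosome 5, 147270097 to 147275848, GRCm38.p6) read 8.28, 8.10 and 7.95 on VDR-null arrays and 7.70, 8.07 and 8.01 on wild-type arrays. Its highest array was VDR-null 1 and its lowest wild-type 1, and the other 4 arrays lay between 7.95 and 8.10 with the genotypes mixed. The difference was 0.18 ± 0.14 (SE, n = 3 arrays per genotype; 95% confidence interval -0.14 to 0.51; limma adjusted p = 0.691), and it was 0.10 without VDR-null replicate 1, 0.07 without wild-type replicate 1 and -0.02 with both left out. Pdx1 is also a gene of the pancreas, and pancreatic acinar transcripts were uneven among the arrays. The mean of the 3 acinar markers bright enough to be tested, of 9 with a probe set, was highest on VDR-null 3. It was 7.30, 6.72 and 9.32 on VDR-null arrays and 6.61, 6.32 and 6.17 on wild-type arrays (exact permutation p = 0.1). Its part in the signal of Pdx1 was not tested. The 3 markers differed by 2.42 (Ctrb1), 1.87 (Cpa1) and -0.04 (Bhlha15). The acinar protease Ctrb1 read 8.57, 7.24 and 11.06 on VDR-null arrays and 7.19, 6.19 and 6.22 on wild-type arrays. The acinar factor Ptf1a was below the table's median on all 6 arrays, at 3.84 to 4.30 in VDR-null and 4.21 to 4.37 in wild-type duodenum.

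Gata4 (17307609; chromosome 14, 63198914 to 63271712) was among the flattest of the factors between the genotypes. It read 9.05, 8.70 and 8.93 on VDR-null arrays and 8.72, 8.88 and 9.04 on wild-type arrays, so that both genotypes covered nearly the same span. The difference was 0.01 ± 0.13 (SE; 95% confidence interval -0.30 to 0.32; limma adjusted p = 0.978), an interval of 0.813-fold to 1.25-fold, and its sign turned under 6 of the alternative settings. Gata6 (17348400; chromosome 18, 11052510 to 11085636) read 10.12, 9.75 and 9.75 on VDR-null arrays and 9.55, 9.83 and 9.74 on wild-type arrays. Here too VDR-null 1 was the highest array and wild-type 1 the lowest, while the other 4 lay within 9.74 to 9.83. The difference of Gata6 was 0.17 ± 0.14 (limma adjusted p = 0.702). It was 0.04 without VDR-null replicate 1, 0.09 without wild-type replicate 1 and -0.03 with both left out.

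The caudal factors ordered the arrays differently. Cdx1 (17354698; chromosome 18, 61018862 to 61036199) read 8.11, 8.23 and 8.37 on VDR-null arrays and 8.21, 7.86 and 8.49 on wild-type arrays. Its lowest and its highest array were both wild-type, replicates 2 and 3. The difference was 0.05 ± 0.17 (SE; 95% confidence interval -0.35 to 0.45; limma adjusted p = 0.919), and it was -0.11 without wild-type replicate 2. Cdx2 (17455307; chromosome 5, 147300900 to 147307249), the factor without which intestinal epithelium is not specified, read 9.03, 8.62 and 9.04 on VDR-null arrays and 8.71, 8.75 and 8.88 on wild-type arrays. VDR-null mice gave both its highest and its lowest value. Its difference was 0.12 ± 0.14 (95% confidence interval -0.21 to 0.44; limma adjusted p = 0.775). Leaving out VDR-null replicate 2 gave 0.26, leaving out VDR-null replicate 1 gave 0.05, and leaving out VDR-null replicate 3 gave 0.04. Cdx2 and Pdx1 are neighbours, 25.1 kb apart on chromosome 5, and both belong to the ParaHox homeobox cluster. Cdx2 and Pdx1 differed in array order: VDR-null 2 was the lowest of 6 for Cdx2 and the second highest for Pdx1.

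Hnf4a and Hnf4g, close relatives with overlapping roles in enterocytes, differed in how much they varied. Hnf4a (17379268; chromosome 2, 163506811 to 163572907) read 11.03, 10.92 and 11.06 on VDR-null arrays and 11.04, 10.89 and 11.16 on wild-type arrays. Its range over the 6 arrays was 0.26, the narrowest of the 9, and VDR-null 1 and wild-type 1 nearly coincided. The difference was -0.03 ± 0.10 (SE; 95% confidence interval -0.27 to 0.21; limma adjusted p = 0.927), an interval of 0.831-fold to 1.16-fold. Hnf4g (17395955; chromosome 3, 3508030 to 3659800) read 11.78, 11.64 and 11.29 on VDR-null arrays and 10.71, 11.65 and 11.22 on wild-type arrays. Wild-type 1 was 0.51 below any other array, and apart from it the genotypes were mixed. The range of Hnf4g was 1.07 and its difference 0.37 ± 0.25 (95% confidence interval -0.21 to 0.96; limma adjusted p = 0.683). Leaving out wild-type replicate 1 gave 0.13, and leaving out both replicate 1 arrays gave 0.03.

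Hnf4a has more than one transcription start, and the probe set does not tell their transcripts apart as far as the sources used here say. RefSeq (GRCm38.p6) gives upstream windows for a pair of starts 40.3 kb apart. Both are shown because they belong to the steadiest of the 9 factors, each as the 250 bases before the start, plus strand, at chr2:163506607-163506856 (upstream start) and chr2:163546905-163547154 (downstream start). The upstream start of this table lies 46 bases inside the gene as bounded above, whose record begins with another transcript, and distances below are counted from the window's own start. Capitals mark matches to any of 7 motifs searched on both strands.
Hnf4a upstream start: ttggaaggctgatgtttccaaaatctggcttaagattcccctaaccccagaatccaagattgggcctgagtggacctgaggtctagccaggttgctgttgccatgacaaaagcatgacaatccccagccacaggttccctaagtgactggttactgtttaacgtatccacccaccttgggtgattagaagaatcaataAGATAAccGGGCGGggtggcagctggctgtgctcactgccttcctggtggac
Hnf4a downstream start: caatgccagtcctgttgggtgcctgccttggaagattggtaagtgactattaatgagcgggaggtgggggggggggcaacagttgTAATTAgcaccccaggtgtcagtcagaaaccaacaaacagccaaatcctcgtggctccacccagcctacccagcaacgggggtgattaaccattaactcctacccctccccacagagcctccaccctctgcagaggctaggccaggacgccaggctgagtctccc
The motifs were AGATAA for GATA factors, TTTATG for CDX factors, CAAAGTCCA for HNF4, AGGTCA as a half-site of nuclear receptors (the vitamin D receptor among them), TAATTA for homeobox proteins, GGGCGG as the box rich in G and C, and CCCCACCC as a further element of KLF proteins. Matches of different motifs could overlap. The upstream window held AGATAA 52 bases and GGGCGG 44 bases before the start, and the downstream window held TAATTA 165 bases before it. Of 32851 windows of the same length in the RefSeq table, 9.99% held AGATAA, 32.7% GGGCGG and 4.84% TAATTA, so each match is a description of the letters and no evidence of binding.

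Klf4 was the factor that varied most. Klf4 (17425401; chromosome 4, 55527137 to 55532475) read 10.11, 8.42 and 8.30 on VDR-null arrays and 7.66, 8.34 and 8.03 on wild-type arrays. One VDR-null mouse, replicate 1, stood far above the rest, and the other VDR-null mice lay next to wild-type 2, so that VDR-null 3 was below it. The difference was 0.93 ± 0.48 (SE; 95% confidence interval -0.20 to 2.06), or 1.90-fold, with a limma adjusted p of 0.683 and an unadjusted p of 0.0932. Leaving out VDR-null replicate 1 gave 0.35, leaving out wild-type replicate 1 gave 0.75, and leaving out both gave 0.17. Its spread within the genotypes was larger than that of 98.6% of the genes tested, against 27.3% for Hnf4a and 31.4% for Klf5.

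Klf5 (17302397; chromosome 14, 99298691 to 99313412) varied little. It read 11.41, 11.67 and 11.68 on VDR-null arrays and 11.58, 11.65 and 11.67 on wild-type arrays. VDR-null 1, the highest array for Klf4, was the lowest for Klf5, and the other 5 arrays lay within 11.58 to 11.68. The difference was -0.05 ± 0.10 (SE; 95% confidence interval -0.29 to 0.20; limma adjusted p = 0.876), and 0.04 without VDR-null replicate 1.

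The upstream window of Klf4 is shown because Klf4 is the member on which the arrays differed most. It holds the 250 bases before the RefSeq start (GRCm38.p6, minus strand, chr4:55532476-55532725), with matches to the same 7 motifs in capitals.
Klf4: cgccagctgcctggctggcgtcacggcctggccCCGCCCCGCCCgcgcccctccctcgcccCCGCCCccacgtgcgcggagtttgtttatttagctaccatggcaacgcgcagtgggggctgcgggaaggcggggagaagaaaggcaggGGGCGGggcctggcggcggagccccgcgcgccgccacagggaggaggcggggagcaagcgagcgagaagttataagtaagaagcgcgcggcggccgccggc
GGGCGG, to which KLF and SP proteins can bind, occurred 4 times in it on either strand, 217, 212, 189 and 101 bases before the start, with the first pair sharing a base, and the other 6 motifs were not found in these letters. The window was 74% G or C, where the median over all windows was 52.4%. The RefSeq table used here paired 4 of the 9 factors with a window (Cdx2, Hnf4a, Klf4 and Pdx1), and those of Pdx1 and Cdx2 held none of the 7 motifs.

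**Figure D2:**
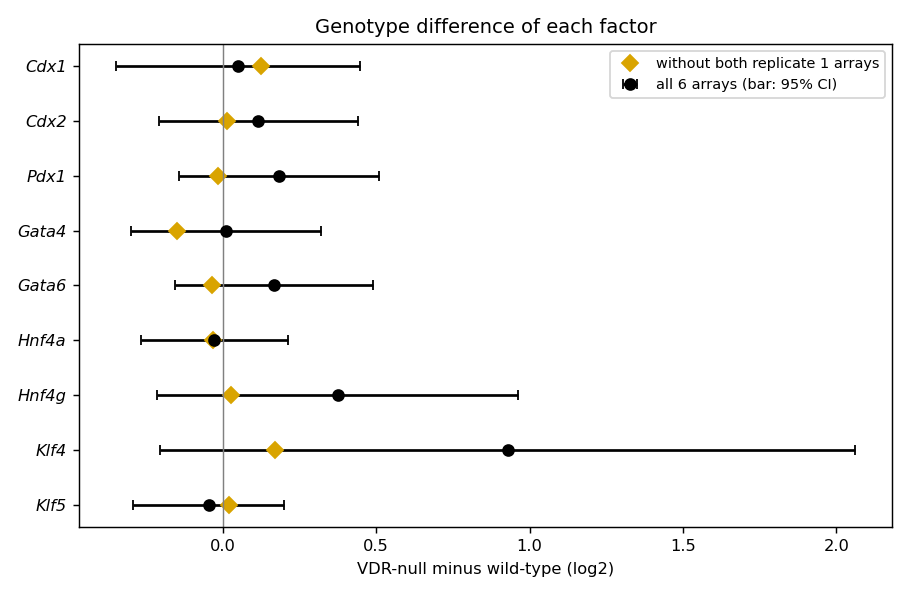
VDR-null minus wild-type difference of each factor in log2 units, as a point with its 95% confidence interval over all 6 arrays, and as a diamond without both replicate 1 arrays. All intervals include 0, and the diamonds of Klf4 and Hnf4g, at 0.17 and 0.03, lie nearer to 0 than their points at 0.93 and 0.37. Both genes were highest on VDR-null 1 and lowest on wild-type 1, so leaving those arrays out could only lower their differences.

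Whether the members of a family differed from each other was tested on the difference between relatives within each array, by an exact two-sided permutation test over the arrays, which for 3 against 3 cannot give a p below 0.1. Over the 4 pairs, Benjamini-Hochberg adjusted, none passed. Klf4 minus Klf5 differed by 0.98 (exact permutation p = 0.2, adjusted p = 0.533). Hnf4a minus Hnf4g differed by -0.40 (exact permutation p = 0.4, adjusted p = 0.533), Gata4 minus Gata6 by -0.16 (exact permutation p = 0.3, adjusted p = 0.533) and Cdx1 minus Cdx2 by -0.07 (exact permutation p = 0.8, adjusted p = 0.8). The value for Klf4 and Klf5 rests mostly on VDR-null 1, whose deviation from the mean of the 6 arrays was 1.83, against -0.12 and -0.25 on VDR-null 2 and 3 and -0.79, -0.17 and -0.50 on wild-type 1 to 3.

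A pair of arrays, 1 of each genotype, stood at the ends for several factors. VDR-null 1 was the highest array for 5 factors (Klf4, Hnf4g, Pdx1, Gata6 and Gata4), and wild-type 1 was the lowest for the first 4 of them. The share of all genes tested with these ends was not counted, so the pattern is not shown to be particular to the factors. The same 2 arrays stood at the ends of the first principal component of the tested genes, which held 62.2% of their variance, at 34.6 and -34.6, with the other 4 arrays between -9.63 and 10.05. They also stood apart in markers of the absorptive villus. The mean of 14 such markers, intestinal alkaline phosphatase Alpi and lactase Lct among them, was 11.96, 11.39 and 10.82 on VDR-null arrays and 9.31, 11.18 and 11.06 on wild-type arrays (exact permutation p = 0.4). Markers of dividing crypt cells averaged 8.88, 9.13 and 9.38 on VDR-null arrays and 9.60, 9.12 and 9.42 on wild-type arrays (exact permutation p = 0.3), with the same 2 arrays at the ends in the opposite order. Smooth muscle markers averaged 9.70, 9.71 and 9.68 on VDR-null arrays and 10.19, 9.75 and 10.29 on wild-type arrays (exact permutation p = 0.1, the smallest possible). Endothelial markers averaged 7.97, 8.10 and 8.30 on VDR-null arrays and 8.79, 8.34 and 8.34 on wild-type arrays (exact permutation p = 0.1), and leukocyte markers 8.02, 8.27 and 7.66 on VDR-null arrays and 7.39, 8.12 and 7.19 on wild-type arrays (exact permutation p = 0.3). In whole duodenum fewer cells of a type and less RNA per cell cannot be told apart, and the part of these shifts in the factors' values was not tested. Permutation p-values of marker lists, here and above, were not adjusted for the number of lists.

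**Figure D3:**
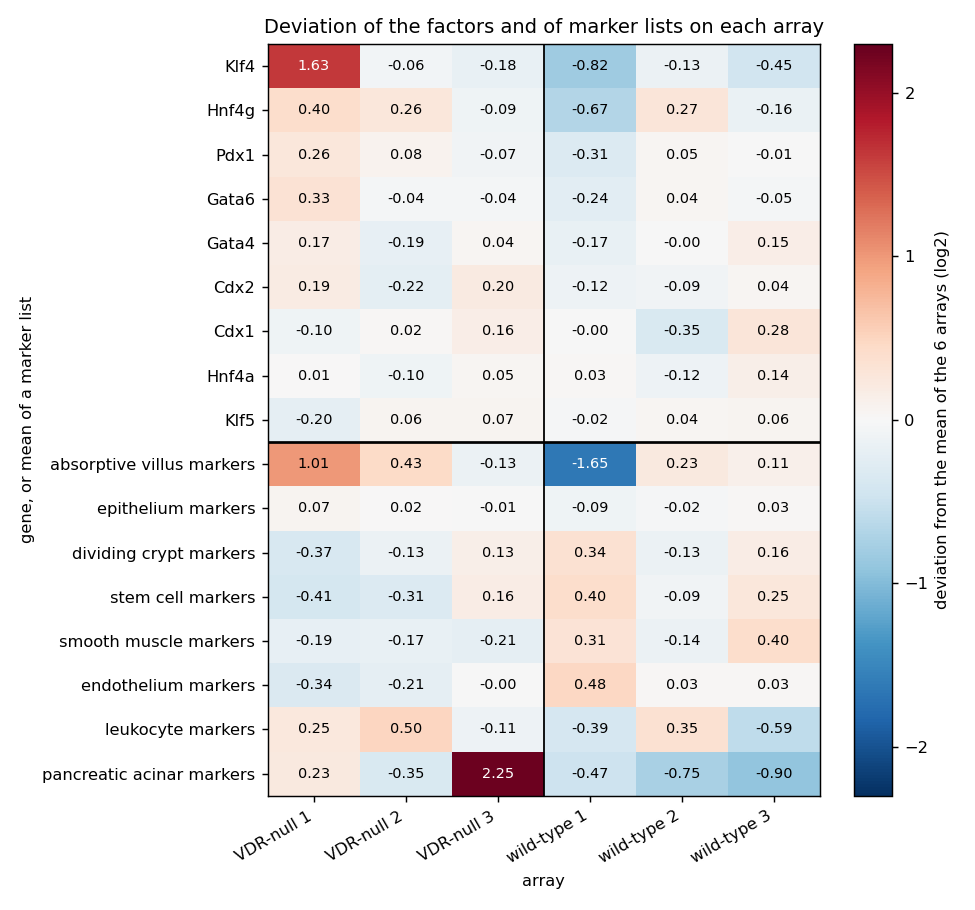
Deviation of each factor (above the line) and of the mean of each marker list (below it) from its mean over the 6 arrays, in log2 units, with VDR-null arrays left of wild-type arrays. Klf4, Hnf4g, Pdx1 and Gata6 are highest on VDR-null 1 and lowest on wild-type 1, like the absorptive villus markers, while Hnf4a stays within 0.14 of its mean on every array.

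Genes that moved most like the factors were sought over the 6 arrays for the 5 factors with a range of at least 0.5, by the mean absolute difference between mean-centred log2 profiles. Nearest to Klf4 were Trim15, Ifit1bl1 and Trim38, at 0.09, 0.11 and 0.13. Trim15 read 8.07, 6.56 and 6.44 on VDR-null arrays and 5.73, 6.41 and 5.87 on wild-type arrays, again with VDR-null 1 alone at the top. Nearest to Hnf4g were Fam110c, the peroxisomal oxidase gene Pipox and the metal transporter gene Slc39a14, at 0.05, 0.07 and 0.07. Pipox read 8.41, 8.20 and 7.97 on VDR-null arrays and 7.46, 8.18 and 7.80 on wild-type arrays. Nearest to Pdx1 were Sidt2, Lima1 and Arf6, at 0.02 each, and nearest to Gata6 were Magi3, Ogfod3 and Sys1, at 0.02 each. Nearest to Cdx1 were Cd3eap, Gsta3 and Galnt17, at 0.03, 0.03 and 0.04. Gsta3 and Galnt17 were dim, at 4.96 to 5.60 and 4.87 to 5.42, around the table's median of 5.17. With 13174 genes searched over 6 arrays, close profiles can arise by chance, and no link to a factor was tested.

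Genes that these factors are known to regulate were described from textbook lists by counts. No gene of these lists passed the limma threshold. Of 14 tested HNF4 targets, 14 had a difference above 0 with a median of 0.69, and 14 were highest on VDR-null 1 and lowest on wild-type 1. As for the factors, the share of all genes tested with these ends was not counted. G6pc, which encodes the glucose-releasing enzyme of the endoplasmic reticulum, read 9.36, 9.34 and 7.79 on VDR-null arrays and 5.44, 7.92 and 7.60 on wild-type arrays (difference 1.84, limma adjusted p = 0.683). Apoa1, an apolipoprotein of chylomicrons, had a difference of 0.76 ± 0.40 (SE) and Npc1l1, the cholesterol importer of the brush border, of 0.82 ± 0.43. Leaving out wild-type replicate 1 gave 1.07 for G6pc, 0.31 for Apoa1 and 0.39 for Npc1l1. Without both replicate 1 arrays G6pc kept a difference of 0.80, against 0.08 for Apoa1 and 0.07 for Npc1l1. The median was 0.14 without wild-type replicate 1. With both replicate 1 arrays left out it was -0.05, and 5 of the 14 were above 0. Of the 14, 6 were also in the absorptive villus marker list.

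The GATA list showed the same dependence on arrays. Of its 6 genes 4 were tested, and all 4 had a difference above 0, with a median of 1.06. Of these 4, 3 were also in the absorptive villus marker list. Lct, the milk sugar hydrolase that Gata4 activates in proximal intestine, read 11.69, 10.59 and 9.49 on VDR-null arrays and 5.74, 10.15 and 10.07 on wild-type arrays, and differed by 1.93 ± 1.22 (SE). The fatty acid carrier Fabp1 differed by 0.59 ± 0.41 and Apoa4 by 0.95 ± 0.71. Leaving out wild-type replicate 1 gave 0.48 for Lct, 0.12 for Fabp1 and 0.11 for Apoa4. The median was 0.58 without VDR-null replicate 1, 0.21 without wild-type replicate 1 and 1.64 without wild-type replicate 3. With both replicate 1 arrays left out, 0 of the 4 were above 0. Fabp6 and Slc10a2, the ileal genes that Gata4 keeps silent, were too dim to be tested: Fabp6 read 3.60, 3.38 and 3.58 on VDR-null arrays and 3.30, 3.62 and 3.77 on wild-type arrays.

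Targets of the other factors were more mixed. Of 11 CDX targets, 3 of them also in the absorptive villus list, 9 had a difference above 0 and 2 below, with a median of 0.33, which was 0.16 without VDR-null replicate 1 and 0.04 without both replicate 1 arrays. The guanylin receptor Gucy2c differed by 0.33 ± 0.16 (SE), the ferroxidase Heph by 0.86 ± 0.43 (0.53 without VDR-null replicate 1 and 0.48 without wild-type replicate 1) and the chloride channel Cftr by -0.27 ± 0.12. Of 3 tested PDX1 targets 2 were above 0: the glucose transporter Slc2a2 differed by 1.36 ± 0.84, the hormone gene Gip by 0.01 ± 0.11 and somatostatin, Sst, by -0.10 ± 0.10. Slc2a2 read 7.32 on wild-type 1 and 10.13 to 11.39 elsewhere, and without that array its difference was 0.33. Of 8 tested KLF4 and KLF5 targets 4 were above 0 and 4 below, with a median of -0.0039. The list pools genes of differentiated villus cells with genes of dividing cells, so its split and its median describe neither factor alone. The 8 targets include the villus keratin Krt20, which differed by 1.08 ± 0.64, the cell cycle inhibitor Cdkn1a by 0.73 ± 0.47 and the polyamine enzyme Odc1 by -0.27 ± 0.16. Leaving out wild-type replicate 1 gave 0.41 for Krt20 and 0.28 for Cdkn1a. Krt20 read 12.16, 11.09 and 10.44 on VDR-null arrays and 8.81, 10.79 and 10.85 on wild-type arrays.

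Other transcription factors of the gut epithelium were divided in sign. Of 20 tested genes 9 had a difference above 0 and 11 below, with a median of -0.03, and 0 passed the limma threshold. Maf, a factor of absorptive cells, read 9.58, 9.11 and 8.62 on VDR-null arrays and 7.91, 8.93 and 8.32 on wild-type arrays (difference 0.71 ± 0.32, SE). The Notch target Hes1 read 7.44, 7.64 and 7.94 on VDR-null arrays and 8.34, 7.74 and 8.19 on wild-type arrays (difference -0.41 ± 0.19). Ehf, of the ETS family, differed by -0.27 ± 0.15. In Maf and Hes1, as in Hnf4g, the genotypes overlapped and VDR-null 1 and wild-type 1 stood at the ends. Maf had the order of Hnf4g, with VDR-null 1 highest, and Hes1 the opposite order.

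**Figure D4:**
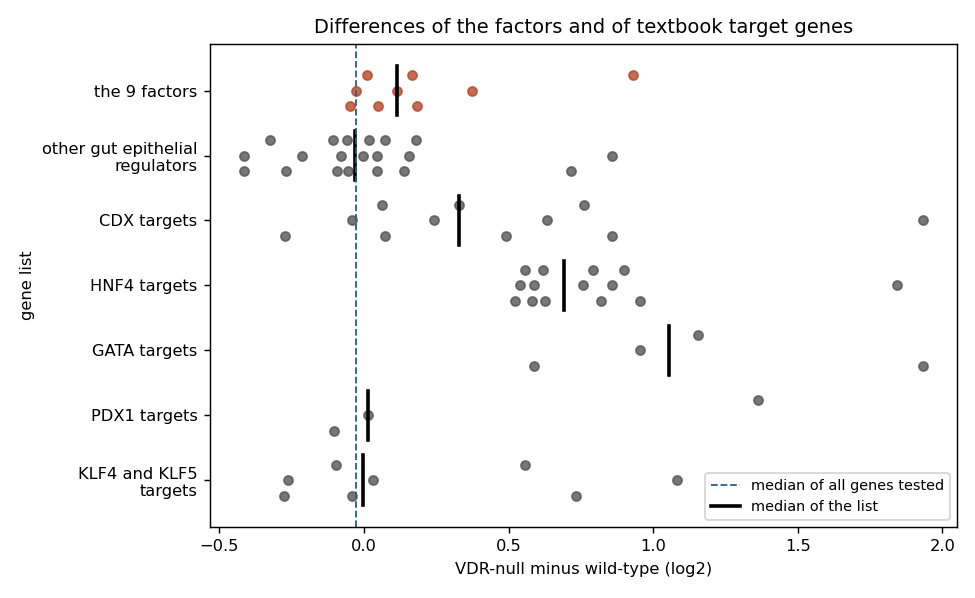
VDR-null minus wild-type differences in log2 units of the 9 factors and of the tested genes of each fixed list, 1 point per gene, with the median of each list as a bar and that of all genes tested as a dashed line. The HNF4 and GATA target lists have medians of 0.69 and 1.06, the 9 factors one of 0.12, and no gene shown passed the limma threshold.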

How the data were processed

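Per the submitters' processing notes, the authors ran RMA in Affymetrix Expression Console (no version given), and the deposited table holds its log2 signals, 1 for each probe set on each array. RMA summarises the probes of a set over a transcript, so single exons and starts are not resolved. The table held 41345 probe sets, of which 23521 had 1 gene symbol, 1814 several and 16010 none. For each gene the single-symbol probe set with the highest mean was used. Genes with 3 or more of 6 arrays over the table's median entered the test. The genotype contrast, two-sided and without covariate, was fitted by lmFit and eBayes of limma 3.58.1 (R 4.3.3), with Benjamini-Hochberg adjustment and a threshold of 0.05. The procedure was tested on simulated data with independent noise for each gene and array, so variation that genes share on an array was not covered. The number of arrays limits the precision.

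The members and gene lists were chosen with earlier results of these data known. Genes were named by rule: the 9 factors, Vdr, the 3 genes of smallest p in each target and factor list, and the nearest profiles. Ctrb1, Cpa1, Bhlha15, Ptf1a, Fabp6, Slc10a2, Car4, Slc37a2, Pgc, Gast, Tff1, Atp4a, Gkn2, Sox2 and Alpi were named as marker or list genes after their values were seen. Promoter sequences and gene positions are RefSeq's for GRCm38.p6. Alternatives covered filter, normalization, prior, array weights, replicate block, probe sets and left-out arrays; leaving out both replicate 1 arrays was chosen after seeing the data.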

Additional observations from a re-analysis of the deposited data

How the results depend on the processing

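No factor passed an adjusted p of 0.05 under any of the 17 alternatives, the lowest limma adjusted p being 0.262 (Hnf4g). Klf4 and Hnf4g were above 0 in all 17, at 0.17 to 1.25 and 0.03 to 0.60. In each of the other 7 factors the sign turned under at least 1 alternative. The filters, priors, replicate block and mean of probe sets cannot change a factor's difference, so they do not test its sign. Array weights gave -0.061 for Cdx1, -0.12 for Cdx2, -0.19 for Gata4 and 0.0083 for Klf5. A second quantile normalization gave -0.015 for Gata4 and cyclic loess 0.0093 for Hnf4a. Without both replicate 1 arrays, a setting chosen after seeing the data, the values were -0.016 for Pdx1, -0.15 for Gata4, -0.035 for Gata6, 0.019 for Klf5, 0.11 for Cdx1 minus Cdx2 and -0.018 for absorptive villus markers. With 1 array left out, Pdx1 ran from 0.07 to 0.26, Gata6 from 0.04 to 0.23, Cdx2 from 0.04 to 0.26, Cdx1 from -0.11 to 0.20, Gata4 from -0.069 to 0.11, Hnf4a from -0.096 to 0.035, Klf5 from -0.093 to 0.044 and Cdx1 minus Cdx2 from -0.21 to 0.065. Factors with an unadjusted p under 0.05 numbered 0 to 1 with 1 array left out: Hnf4g (0.0302) and Klf4 (0.0424) in one setting each.

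Genes with an unadjusted p under 0.05 numbered 1278 without the filter, 2718 with array weights, 338 with the replicate block, 372 without both replicate 1 arrays and 284 to 1569 with 1 array left out, against 689. Their number past the adjusted threshold was 0 in every setting. The replicate block changed no call of a factor. Deviations of same-numbered arrays from their genotype means correlated at -0.618, 0.193 and -0.263, and those of unlike-numbered arrays at -0.602 to 0.685. With 3 arrays per genotype these values cannot decide whether the numbers pair the mice. Without both replicate 1 arrays 5 HNF4, 0 GATA and 1 PDX1 targets were above 0, and the median of the other regulators was 0.030. PDX1 targets above 0 numbered 1 after a second quantile normalization and with array weights, and 1 to 2 with 1 array left out. The median of the other regulators ran from -0.14 to 0.036 with 1 array left out. The cause of these shifts was not tested.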
